A study of Homo sapiens with 9 samples.

Results

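Genes that make microRNAs and carry out their silencing were examined in human BT-549 cells given a synthetic miR-150-5p. They were DGCR8, DROSHA, XPO5, DICER1, AGO1, AGO2, AGO3, AGO4, TNRC6A and TNRC6B, taken by their platform gene symbol, with the brightest feature of each over all 9 arrays. Features with no gene symbol, or with more than 1, in the annotation used here were left out. Genes with a feature of a single symbol are called measured below. Of these 10 genes, 4 had such a feature, 1 feature each: DGCR8, XPO5, TNRC6A and TNRC6B. The other 6, among them all 4 Argonaute genes, DROSHA and DICER1, were not analysed here, so no value is given for an Argonaute. The 4 stand among 14884 genes with a feature of a single symbol and 53617 features on the array.

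BT-549 is a triple-negative breast cancer line, a class of tumour without estrogen and progesterone receptors or amplified HER2. The 3 groups held 3 arrays each: cells transfected with 50 nM miR-150-5p mimic, cells transfected with 50 nM of a non-specific negative control RNA, and mock cells given Lipofectamine RNAiMAX alone. All groups received the lipid reagent, had a change of medium at 24 h and were harvested at 72 h. Only this cell line was used, and nothing in the labels states whether arrays of a group came from separate cultures, so p-values measure the spread between these arrays, which may be technical.

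A microRNA begins as a hairpin in a long transcript. In the nucleus the RNase DROSHA and its partner DGCR8, together called the Microprocessor, cut the hairpin out, exportin-5 (XPO5) carries it to the cytoplasm, and DICER1 trims it to a short duplex. An Argonaute protein takes up 1 strand and binds TNRC6 (GW182) proteins, which recruit the deadenylation and decapping enzymes that silence the target mRNA. A mimic is made as a finished duplex and so enters this pathway after the Microprocessor, export and dicing steps.

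DGCR8 carries microRNA hairpins inside its own transcript, and the Microprocessor is known to cut that transcript at them, which lowers DGCR8 mRNA. In RefSeq (GRCh38.p14) 3 mature microRNAs of MIR3618 and MIR1306 lie within DGCR8 on its strand, at chr22:20085797-20085818, chr22:20086072-20086093 and chr22:20086112-20086129 (plus strand). They are shown because the DGCR8 transcript is itself a substrate of the complex that the DGCR8 protein forms with DROSHA. DGCR8 was also the only member of the 4 with a called change. Capitals mark the seed, bases 2 to 8, and the 3 seeds differ.
hsa-miR-3618: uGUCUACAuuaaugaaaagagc
hsa-miR-1306-5p: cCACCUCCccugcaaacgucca
hsa-miR-1306-3p: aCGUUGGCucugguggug
No feature named for either microRNA locus was analysed here.

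The authors' values are RMA signals on a log2 scale. Array medians over all features lay between 2.43 and 2.48, and every value of the 4 genes was at 3.91 or above. Differences were tested with limma over all 14884 genes, with Benjamini-Hochberg adjustment, and a gene was called at an adjusted p under 0.05. The number of arrays limits the precision, and an array of many cells cannot tell fewer expressing cells from less RNA per cell. Among marker genes, VIM, of mesenchymal cells, read 8.47 to 9.38 over the 9 arrays, while ESR1, the estrogen receptor gene, read 1.96 to 2.37, PGR, the progesterone receptor gene, 1.77 to 1.85, and EPCAM, of epithelial cells, 1.64 to 2.01. The other 2 epithelial or luminal markers measured were present, with KRT18, a keratin, at 7.31 to 7.75 and GATA3, a luminal transcription factor, at 5.04 to 6.11. The 2 leukocyte markers measured, LYZ and CD14, and the 2 endothelial markers, PECAM1 and VWF, read between 1.58 and 2.80. The mean of the 3 mesenchymal markers measured (of 5 listed) was 7.94 to 8.10 in the mimic, 7.87 to 8.12 in the negative control and 8.45 to 8.53 in mock. That of the 5 epithelial or luminal ones (of 6 listed) was 3.59 to 3.75 in the mimic, 3.84 to 3.95 in the negative control and 3.76 to 3.92 in mock, and the part of these shifts in the results was not tested. The 23 genes of small nucleolar and Cajal body RNAs averaged 5.95 to 6.75 on mimic arrays. On negative control arrays 1 to 3 it was 5.91, 6.83 and 5.87, and on mock arrays 1 to 3 it was 5.62, 6.78 and 5.64. Mock 2 and negative control 2 thus stood apart from the other arrays of their groups in this measure. The mimic arrays differed in it too. Within the mimic and negative control groups DGCR8 and XPO5, given below, ran in the reverse order of this measure. Within mock XPO5 did so, and DGCR8 was lowest on mock 2. The part of this measure in the results below was not tested beyond leaving out arrays.

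DGCR8 (feature of NM_022720) was the 1 member of 4 with a called change, in the mimic against the negative control, where 3.18% of all genes tested were called. It read 4.53, 4.66 and 4.38 on mimic arrays 1 to 3, against 4.00, 3.91 and 4.06 on the negative control arrays and 4.21, 4.04 and 4.35 on the mock arrays. Every mimic array lay above all 6 control arrays, as in 5.76% of all genes tested, while negative control and mock arrays overlapped. DGCR8 averaged 4.53 ± 0.14 in the mimic and 3.99 ± 0.08 in the negative control (SD, n = 3 each). It rose by 0.54 ± 0.11 (log2, SE), or 1.45-fold with an unadjusted 95% interval of 1.23 to 1.71, at adjusted p = 0.0275 in limma. Mock averaged 4.20 ± 0.15. The difference of the mimic from mock was 0.32 ± 0.11 (95% interval 0.09 to 0.56) and did not pass (limma adjusted p = 0.138). The negative control was at -0.21 ± 0.11 against mock (95% interval -0.45 to 0.02, limma adjusted p = 0.510). The mimic comparisons share the mimic arrays, so how far they differ from each other is the comparison of the negative control with mock, which did not pass.

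The call on DGCR8 depended on the arrays. It was lost without mimic 1 (adjusted p = 0.0966), mimic 2 (0.0938), negative control 1 (0.0795), negative control 2 (0.0681), negative control 3 (0.0664) or mock 1 (0.0519), and without mock 2 and negative control 2 together (0.0604). The difference itself stayed between 0.47 and 0.61 under every alternative run.

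**Figure D1:**
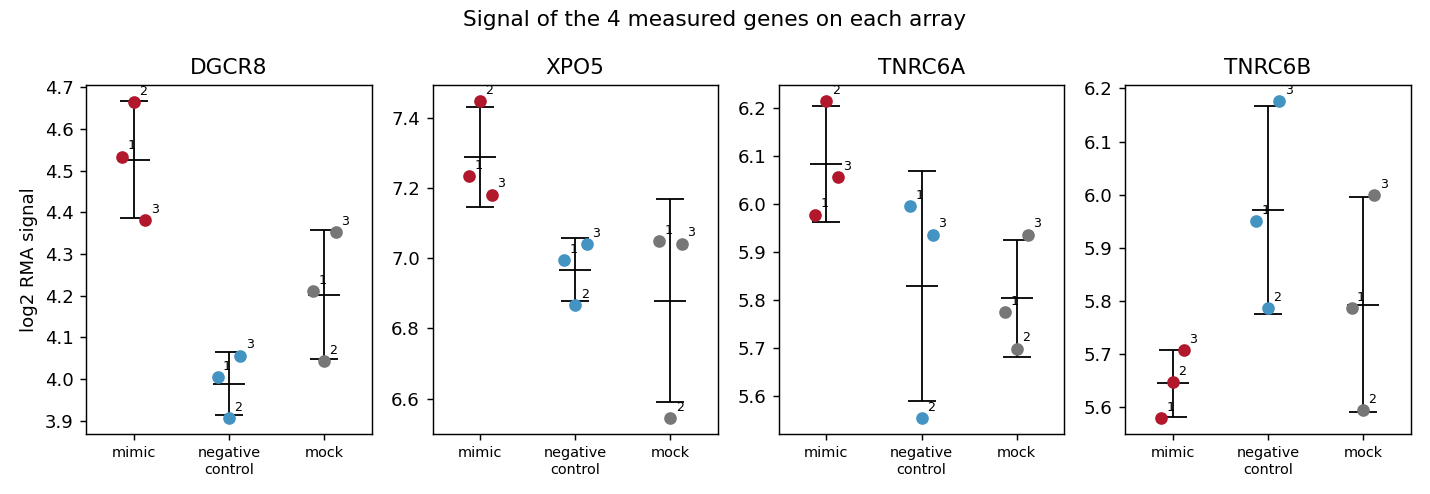
Log2 RMA signal (vertical axis, a separate scale for each gene) of DGCR8, XPO5, TNRC6A and TNRC6B on each array of the mimic, negative control and mock groups. Points are arrays with their replicate number, and bars are the mean ± SD of 3 arrays. For DGCR8 and XPO5 the 3 mimic arrays sit above all 6 control arrays, and for TNRC6B they sit below the 3 negative control arrays.

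XPO5 (feature of NM_020750), the exporter of precursor hairpins, read 7.23, 7.45 and 7.18 on mimic arrays 1 to 3. It read 6.995, 6.87 and 7.04 on the negative control arrays and 7.05, 6.54 and 7.04 on the mock arrays. As with DGCR8, the mimic arrays were the highest of all 9, and the control groups overlapped. XPO5 averaged 7.29 ± 0.14 in the mimic, 6.97 ± 0.09 in the negative control and 6.88 ± 0.29 in mock (SD, n = 3 each). The mimic differed from the negative control by 0.32 ± 0.14 (1.25-fold, 95% interval 1.00 to 1.55, limma adjusted p = 0.304). It differed from mock by 0.41 ± 0.14 (1.33-fold, 95% interval 1.07 to 1.65, limma adjusted p = 0.159). Neither passed. The value against mock rests in part on mock 2, the lowest array, and was 0.24 without it. The negative control was at 0.09 ± 0.14 against mock (95% interval -0.23 to 0.40) and at -0.08 without mock 2. DGCR8 and XPO5 are among 858 genes whose mimic arrays lay above all 6 control arrays.

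The 300-base windows around the starts of these 2 genes are shown because among the members only these had all mimic arrays above both control groups. Each runs from 250 bases before to 50 after the RefSeq start (GRCh38.p14), at chr22:20079991-20080290 on the plus strand for DGCR8 and chr6:43575989-43576288 on the minus strand for XPO5. Capitals mark matches on either strand to CCAAT, to GGGCGG (the GC box), to CACGTG (an E-box), to TGCGCA (the core of NRF1 sites) and to TATAAA.
DGCR8: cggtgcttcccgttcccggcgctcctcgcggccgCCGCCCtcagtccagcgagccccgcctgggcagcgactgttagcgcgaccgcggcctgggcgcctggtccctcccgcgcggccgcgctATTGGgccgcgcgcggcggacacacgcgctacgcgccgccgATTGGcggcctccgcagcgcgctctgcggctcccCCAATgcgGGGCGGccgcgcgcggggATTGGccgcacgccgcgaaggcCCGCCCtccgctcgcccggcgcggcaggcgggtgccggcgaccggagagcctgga
XPO5: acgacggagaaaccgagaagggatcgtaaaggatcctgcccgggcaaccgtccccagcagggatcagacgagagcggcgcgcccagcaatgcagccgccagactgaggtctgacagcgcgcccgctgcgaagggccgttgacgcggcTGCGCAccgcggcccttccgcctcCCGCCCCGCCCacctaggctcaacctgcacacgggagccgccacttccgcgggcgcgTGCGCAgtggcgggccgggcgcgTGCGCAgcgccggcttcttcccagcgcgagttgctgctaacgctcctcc
The DGCR8 window held 4 matches to CCAAT and 3 to GGGCGG. The XPO5 window held 3 to TGCGCA and 2 to GGGCGG, which overlap by 1 base, and no match to CCAAT. Of the motifs, CCAAT is in 34.6% of the 35116 such windows in the RefSeq table used, GGGCGG in 45.0% and TGCGCA in 8.2%. Neither window held CACGTG (7.3% of windows) or TATAAA (11.5%). Of the motifs searched, both windows held the GC box, as did those of TNRC6A (1 match) and TNRC6B (2), which also held 1 and 5 matches to CCAAT. Both windows were rich in G and C, at 80.3% for DGCR8 and 71.7% for XPO5 against a median of 58.7%. The window of TNRC6A was at 73.7% and that of TNRC6B at 57.3%. A match is a run of letters and not evidence that a factor binds.

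The silencing end of the pathway was read by TNRC6A and TNRC6B, paralogous scaffolds that link Argonaute to the deadenylases. TNRC6A (feature of NM_014494) read 5.98, 6.21 and 6.06 on mimic arrays 1 to 3, 5.996, 5.55 and 5.94 on the negative control arrays, and 5.78, 5.70 and 5.94 on the mock arrays. The mimic arrays lay above the mock arrays and overlapped with the negative control, where array 2 was low. TNRC6A averaged 6.08 ± 0.12 in the mimic, 5.83 ± 0.24 in the negative control and 5.80 ± 0.12 in mock (SD, n = 3 each). The mimic was at 0.25 ± 0.13 against the negative control (95% interval -0.03 to 0.54, limma adjusted p = 0.379, and 0.12 without negative control 2) and at 0.28 ± 0.13 against mock (-0.01 to 0.57, limma adjusted p = 0.299). The negative control was at 0.03 ± 0.13 against mock (95% interval -0.26 to 0.31).

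TNRC6B (feature of NM_001024843) lay the other way. It read 5.58, 5.65 and 5.71 on mimic arrays 1 to 3, 5.95, 5.79 and 6.18 on the negative control arrays, and 5.79, 5.59 and 5.9996 on the mock arrays. The mimic arrays were below all negative control arrays and overlapped with mock, where array 2 was low. TNRC6B averaged 5.64 ± 0.06 in the mimic, 5.97 ± 0.20 in the negative control and 5.79 ± 0.20 in mock (SD, n = 3 each). The mimic was at -0.33 ± 0.13 against the negative control (0.80-fold, 95% interval on the log2 scale -0.61 to -0.04) and did not pass (limma adjusted p = 0.237). Against mock it was at -0.15 ± 0.13 (95% interval -0.43 to 0.13, limma adjusted p = 0.623), and at -0.045 without mock 3 and -0.25 without mock 2. The negative control was at 0.18 ± 0.13 against mock (95% interval -0.11 to 0.46), and between 0.075 (without negative control 3) and 0.28 (without mock 3) on leaving out 1 array. Taken within replicate numbers 1 to 3, the negative control minus mock difference of TNRC6B was 0.16, 0.19 and 0.18, and that of DGCR8 was -0.21, -0.14 and -0.30, each of 1 sign, while those of XPO5 and TNRC6A were not. The share of all genes with differences of 1 sign was not counted, so this is a description. With the replicate number as a block neither TNRC6B (limma adjusted p = 0.608) nor DGCR8 (0.617) passed in this comparison.

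**Figure D2:**
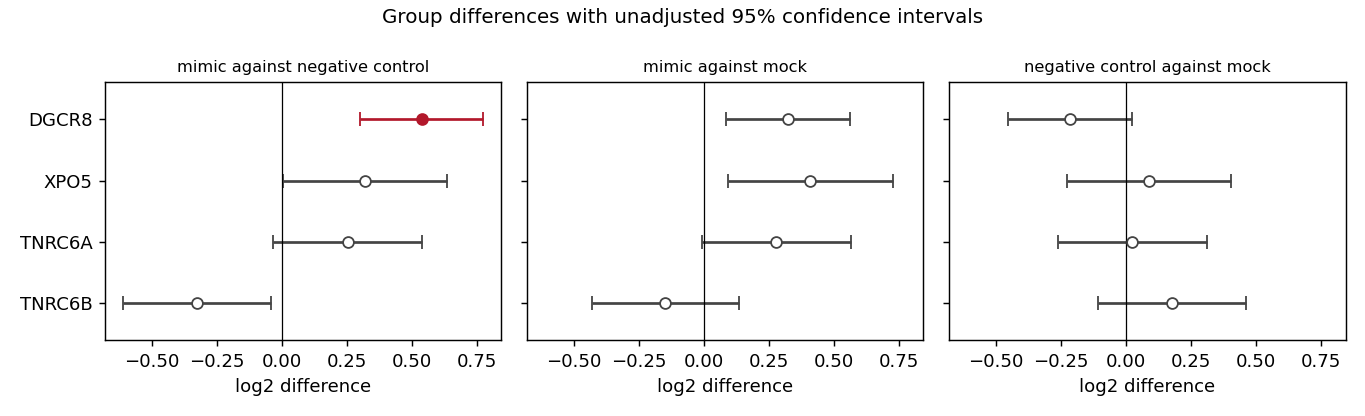
Log2 difference (horizontal axis) of each gene in the 3 comparisons, with unadjusted 95% confidence intervals from limma. The filled red point, DGCR8 in the mimic against the negative control at 0.54, is the one that passed an adjusted p of 0.05, and open points did not pass.

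Because the paralogs lay on opposite sides of 0, their difference within each array, which a shift common to both features leaves unchanged, was set out after their values were seen. TNRC6B minus TNRC6A was -0.40, -0.57 and -0.35 on mimic arrays 1 to 3, -0.05, 0.23 and 0.24 on the negative control arrays, and 0.01, -0.10 and 0.06 on the mock arrays. All mimic arrays were below all 6 control arrays. The mean was -0.44 ± 0.12 in the mimic, 0.14 ± 0.16 in the negative control and -0.01 ± 0.09 in mock (SD, n = 3 each). The mimic thus lay at -0.58 against the negative control and at -0.43 against mock, and the negative control at 0.15 against mock. Since the contrast was chosen from these values, and 3 arrays against 3 cannot give an exact p below 0.1, it is a description with no test. TNRC6C, the remaining paralog, read 3.27 to 3.49 in the mimic, 3.17 to 3.58 in the negative control and 3.27 to 3.30 in mock, and was at 0.02 ± 0.12 in the mimic against the negative control. It too was named after its values were seen.

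**Figure D3:**
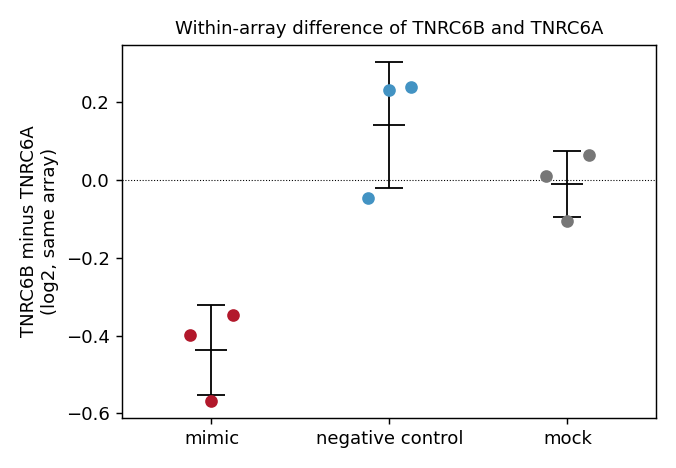
TNRC6B minus TNRC6A on the same array (vertical axis, log2) for mimic, negative control and mock. Points are arrays and bars are the mean ± SD of 3 arrays. The mimic arrays lie between -0.57 and -0.35 and the 6 control arrays between -0.10 and 0.24.

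Counted over the members, 1 of 4 was called in the mimic against the negative control, against 3.18% of all genes tested. There 3 had an unadjusted p under 0.05, DGCR8 and XPO5 above 0 and TNRC6B below, against 16% of all genes. In the mimic against mock 0 of 4 were called by limma, against 3.9% of all genes, and 2 had an unadjusted p under 0.05, DGCR8 and XPO5, against 17.5%. In the negative control against mock 0 of 4 were called by limma, against 0.645%, and 0 had an unadjusted p under 0.05, against 11%. The arrays of the groups did not overlap for 3 of the 4 in each mimic comparison, against 18.6% of all genes for the negative control and 20.2% for mock, and for 0 of 4 in the negative control against mock, against 12%. The median of the 4 differences was 0.29 in the mimic against the negative control, 0.30 against mock and 0.06 in the negative control against mock. Over all genes the median was -0.00436 in the mimic against the negative control, 0.000345 in the mimic against mock and 0.00757 in the negative control against mock. With 4 genes these shares are a description.

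Over the 9 arrays DGCR8, XPO5 and TNRC6A ran alike, with Pearson's r of 0.80 for DGCR8 and XPO5, 0.76 for DGCR8 and TNRC6A and 0.80 for XPO5 and TNRC6A. TNRC6B had r of -0.43 with DGCR8, -0.05 with XPO5 and 0.01 with TNRC6A. The points share 3 groups and each array's scaling, so these r describe the arrays and carry no test. The gene most like DGCR8 was PAPPA2 (r = 0.98), a protease of IGF-binding proteins, which averaged 4.54 in the mimic, 3.204 in the negative control and 3.76 in mock. TRAPPC8 was most like XPO5 (r = 0.97), HCFC1, a transcriptional coregulator, most like TNRC6A (r = 0.97), and PCYOX1, a lysosomal oxidase, most like TNRC6B (r = 0.97). Each was picked for the highest r among all other genes tested, over only 9 arrays, so these r carry no test either. A shared function was not tested.

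Of 80 other genes of the pathway, in 5 lists by role, 42 were measured. In the mimic against the negative control 0 of 42 were called by limma, with 3 at an unadjusted p under 0.05 (7.14%, against 16% of all genes tested), 32 above 0 and 10 below, and a median of 0.07. Against mock 2 rose in the mimic, 0 fell and 40 did not pass. These 2 are 4.76% of the 42, near the 3.9% of all genes, and 10 had an unadjusted p under 0.05 (23.8%, against 17.5%). Of the 42, 30 lay above 0 and 12 below, with a median of 0.09. In the negative control against mock 0 were called and 5 had an unadjusted p under 0.05 (11.9%, against 11%), with 22 above 0 and 20 below, and a median of 0.01. Over all genes tested 7240 lay above 0 and 7634 below in the mimic against the negative control. Against mock these counts were 7467 and 7415 in the mimic, and 7766 and 7116 in the negative control. The counts above and below 0 carry no test.

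The 2 that rose against mock were both of the list of turnover enzymes and RNA-binding cofactors, of which 8 were measured. XRN2, a nuclear exonuclease that degrades microRNAs in the worm Caenorhabditis elegans, read 8.62, 8.49 and 8.34 on mimic arrays, 8.24, 8.08 and 8.04 on negative control arrays and 8.10, 7.81 and 8.09 on mock arrays. Its mimic arrays were above all others, as in 5.76% of all genes tested. XRN2 rose by 0.49 ± 0.11 against mock (1.40-fold, limma adjusted p = 0.0462) and was at 0.37 ± 0.11 against the negative control (limma adjusted p = 0.127). IGF2BP3, an RNA-binding protein that shields mRNAs from decay, read 6.06, 6.02 and 5.88 on mimic arrays, 5.85, 5.85 and 5.88 on negative control arrays and 5.44, 5.32 and 5.75 on mock arrays. It rose by 0.48 ± 0.11 against mock (1.40-fold, limma adjusted p = 0.0473), and the negative control arrays also lay above mock, at 0.35 ± 0.11 (limma adjusted p = 0.259). In the mimic against the negative control IGF2BP3 was at 0.13 ± 0.11 (limma adjusted p = 0.638). Both calls against mock are near the threshold. XRN2 missed whichever of the 9 arrays was left out (adjusted p = 0.0545 to 0.163). IGF2BP3 missed on leaving out each array in turn except mock 3 (adjusted p up to 0.163, and 0.0130 without mock 3).

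Of the 10 measured genes of primary transcript processing, 0 were called in any comparison. In the mimic against the negative control 9 lay above 0 and 1 below, with a median of 0.16, and against mock also 9 and 1, with a median of 0.17. Over all genes 7240 lay above 0 and 7634 below in the mimic against the negative control, and 7467 and 7415 against mock. With 10 genes these counts are a description. METTL3, the methyltransferase whose mark on primary transcripts promotes DGCR8 binding, had the largest difference of this list in both mimic comparisons. It read 6.51, 6.35 and 6.43 on mimic arrays, 5.996, 6.19 and 5.67 on negative control arrays and 5.97, 5.89 and 6.22 on mock arrays. Its mimic arrays were above all 6 control arrays, as in 5.76% of all genes tested. METTL3 was at 0.48 ± 0.14 against the negative control (limma adjusted p = 0.106) and 0.40 ± 0.14 against mock (limma adjusted p = 0.158). A link to DGCR8 was not tested. METTL3, PAN2, DCP2, EDC3, DCP1A, EDC4, TARBP2 and STIP1 were named after their values were seen.

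Of the 15 measured genes of deadenylation, decapping and decay, 0 were called in any comparison. At an unadjusted p under 0.05 stood 5 in the mimic against mock (33.3%, against 17.5% of all genes), 4 in the negative control against mock (26.7%, against 11%) and 0 in the mimic against the negative control (against 16%). Of the 5, 4 lay above mock and 1 below, PAN2, a deadenylase subunit, at -0.38 ± 0.14 (limma adjusted p = 0.186), and all 4 of the negative control lay above mock. DCP2, the decapping enzyme, read 6.39, 6.28 and 6.40 on mimic arrays, 6.65, 6.52 and 6.22 on negative control arrays and 5.88, 6.09 and 5.87 on mock arrays. Mimic and negative control arrays overlapped with each other and lay above mock, at 0.41 ± 0.12 in the mimic (limma adjusted p = 0.0884) and 0.52 ± 0.12 in the negative control (limma adjusted p = 0.103). EDC3, an enhancer of decapping, lay likewise, at 0.48 ± 0.12 in the mimic (limma adjusted p = 0.0604) and 0.42 ± 0.12 in the negative control (limma adjusted p = 0.206) against mock. These comparisons share the mock arrays. EDC3 read 5.04, 4.96 and 5.38 on mock arrays 1 to 3, DCP1A 5.81, 5.48 and 5.81, and EDC4 5.38, 4.89 and 5.56. Of the 4 genes above mock in the mimic, these were lowest on mock 2 among the mock arrays, and DCP2 was highest there. Mock 2 stood apart in small nucleolar RNAs, and its part in these counts was not tested.

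Of 5 measured genes of export, dicing partners and tailing and 4 of Argonaute loading and import, 0 were called in any comparison. The first list had medians of 0.04 in the mimic against the negative control and 0.02 against mock. TARBP2, the double-stranded RNA-binding partner of DICER1, was its highest gene against mock, at 0.19 ± 0.09 (limma adjusted p = 0.301). The loading list had medians of 0.13 in the mimic against the negative control and 0.14 against mock. STIP1, a cochaperone of the heat shock proteins that open Argonaute, was its highest gene, at 0.46 ± 0.14 against mock (limma adjusted p = 0.117).

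**Figure D4:**
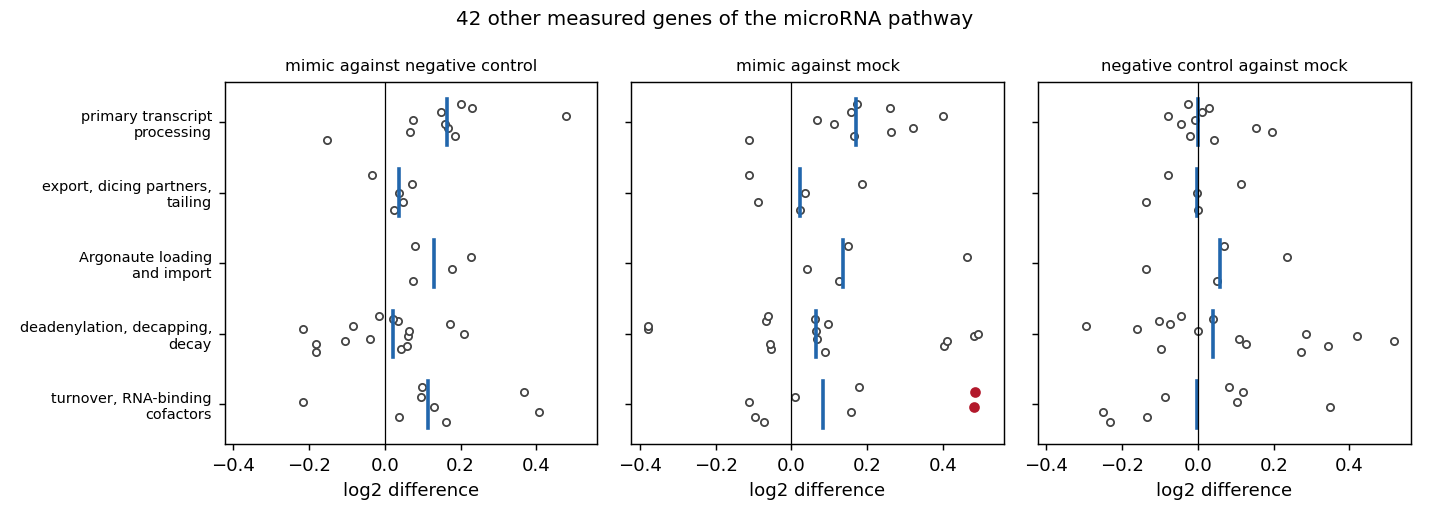
Log2 difference (horizontal axis) of the 42 other measured pathway genes, by list, in the 3 comparisons. Each circle is a gene, filled red where it passed an adjusted p of 0.05, and blue bars are list medians. The 2 red circles, both in the mimic against mock, are XRN2 at 0.49 and IGF2BP3 at 0.48.

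The products of the pathway could be read only as loci. Features named for 1072 microRNA loci were tested, and a whole-transcript signal there need not follow the mature microRNA. In the mimic against the negative control 5 rose and 7 fell (1.12% of the loci, against 3.18% of all genes). Against mock 3 rose and 6 fell in the mimic (0.84%, against 3.9%), and in the negative control against mock 0 rose and 3 fell (0.28%, against 0.645%). Their median difference was -0.02 in each mimic comparison and -0.00283 in the negative control against mock. The signal of the loci was not set beside that of all genes, and the share called varied with signal. With genes under the 25th percentile of signal left out, 4.59% were called in the mimic against the negative control and 6.33% against mock. The lower shares among the loci are thus a description. MIR150, the gene of the microRNA that was added, read 2.62 ± 0.44 in the mimic, 2.80 ± 0.22 in the negative control and 2.71 ± 0.12 in mock (SD, n = 3 each), and since the mimic is a finished duplex this checks nothing about the labels.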

How the data were processed

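Total RNA from 9 BT-549 samples was hybridised to Affymetrix Human Gene 2.0 ST arrays. The deposited table holds log2 RMA signals computed by the authors, per the submitters' processing notes, which background-corrects, equalises array distributions and sums the probes of each feature. Its version and the array definition were not in the sources, and the notes name a FlashTag biotin kit for labelling. The platform's annotation gave 1 symbol to 16098 of 53617 features, and all 16098 gene IDs matched a RefSeq table (GRCh38.p14), used for names, promoters and microRNAs. The feature with the highest mean over 9 arrays stood for each of 14884 genes, with no filter on signal.

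Groups came from the labels' treatment. Genes were fitted with limma 3.58.1 in R 4.3.3 (lmFit, eBayes, defaults) on all 9 arrays with 1 mean per group (6 residual and 9.60 total degrees of freedom), two-sided, with Benjamini-Hochberg adjustment over all genes of each of 3 comparisons and calls under 0.05. Intervals are 95%, unadjusted. The pipeline was tested on simulated data. Members and lists were chosen with earlier results of these data known. Named were all measured members, MIR150, up to 3 called genes per list and comparison, and the gene with the highest r to each member. Others are marked as named after their values were seen.

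The titles share replicate numbers. Deviations from group means of same-numbered negative control and mock arrays had r = 0.15, 0.23 and 0.15 across genes, which by the rule used (every pair above 0.1) treats them as paired on evidence from the values. Mock 2 and negative control 2 also shared a high mean of small nucleolar RNAs (6.78 and 6.83). The part of this in these r was not tested. For mimic arrays the r with same-numbered control arrays ranged from -0.29 to -0.05. Alternatives covered normalization, centring, a signal filter, feature choice, array weights, the variance model, the arrays fitted, the replicate block and leaving out arrays. The mature sequence of miR-150-5p was not used here.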

Additional observations from a re-analysis of the deposited data

How the results depend on the processing

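Of the 10 alternatives other than leaving out 1 array, DGCR8 was called in the mimic against the negative control under 6, and the count of members called was 0 in place of 1 with every feature tested (adjusted p = 0.0815, 53617 features), with only the 6 arrays compared (0.0503), with the replicate block (0.0712) and without mock 2 and negative control 2 together (0.0604). Leaving out 1 array gave 0 to 1 members called there. In the other comparisons 0 members were called under every alternative run. Of other pathway genes, 1 (METTL3) was called in the mimic against the negative control with array weights, in place of 0. In the mimic against mock 0 were called, in place of 2, with the arrays quantile-normalized once more, with every feature tested, with the mean-variance trend, with the 6 arrays compared and with the replicate block, 3 (EDC3 beside XRN2 and IGF2BP3) with the filter at the 25th percentile of signal and with array weights, and 1 (PAN2) without mock 2 and negative control 2 together. Leaving out 1 array gave 0 to 2 there, with PAN2 called without mock 2 and EDC3 and IGF2BP3 called without mock 3.

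The replicate block changed no call in the negative control against mock, where 0 members and 0 other pathway genes were called with and without it. By the rule used, mimic arrays showed no pairing with same-numbered control arrays (r from -0.29 to -0.05). The calls lost under the block in the mimic comparisons stand among the losses listed above. The differences that turned were small: in the negative control against mock XPO5 was at -0.028 without mock 2 and negative control 2 together and at -0.078 without mock 2 (range without 1 array -0.078 to 0.174), and TNRC6A at -0.058, -0.028 and -0.027 without negative control 1, negative control 3 or mock 2 (range -0.058 to 0.162). TNRC6B minus TNRC6A kept its direction in both mimic comparisons under the scaling and leave-one-out alternatives run. The cause of these losses was not tested. The number of tests was larger with every feature, and fewer arrays were fitted where arrays were left out. Another background correction and a scan batch were not run, since the table holds only RMA values and no batch is named. The differences of XPO5 and TNRC6B did not pass after adjustment, which with 3 arrays a group does not show that they are 0.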
